A study of Homo sapiens with 4 samples.

Results

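The genes described here encode the glycosyltransferases that lengthen and cap glycans in the Golgi: the sialyl-, fucosyl-, galactosyl- and N-acetylglucosaminyltransferases (GlcNAc-transferases) whose symbols begin with ST3GAL, ST6GAL, ST6GALNAC, ST8SIA, B3GNT, B3GALT, B4GALT, GCNT, FUT or MGAT followed by a digit, together with C1GALT1 and its chaperone C1GALT1C1. They were chosen by name, and 67 of the 20252 rows of the deposited table matched. The study compared 4 libraries of messenger RNA from H2030, an established human lung adenocarcinoma line: 2 labelled GALNT3 overexpression and 2 labelled control vector. Every library came from cells at passage 5 to 10, cultured for 2 days in RPMI medium containing 10% fetal bovine serum, with no treatment recorded. Nothing in the labels states the vector type, the number of clones, or whether replicates were grown apart. The p-values thus rest on library-to-library spread, part of which may be technical.

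A glycan is built stepwise. GALNT enzymes such as GALNT3 place N-acetylgalactosamine (GalNAc) on serine or threonine, and core enzymes then add galactose or GlcNAc to it. N-glycans, attached to asparagine, receive GlcNAc antennae from the MGAT enzymes. On either base, galactose and GlcNAc can alternate as lactosamine chains, and sialic acid or fucose usually ends the chain. In epithelia these end structures form blood group and Lewis antigens and ligands for lectins, and they are often altered in carcinoma.

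GALNT3 was measured against the labels. It stood at 0.0164 and 0 FPKM (fragments per length of transcript and library size) in the libraries labelled GALNT3 overexpression, against 4.34 and 5.34 FPKM in those labelled vector. The symbol was thus counted in the vector-labelled libraries. Whether a coding sequence supplied on a vector would be counted on it depends on that sequence and on how fragments were counted. Neither is given in the sources used here, and the cause of these values was not tested. All directions below are therefore between libraries as labelled (OE-labelled and vector-labelled), and each would turn if the labels were exchanged. Relative depth, read from the steps in the low values, was 0.973 and 0.966 in the OE-labelled libraries and 1.07 and 0.988 in the vector-labelled ones. Of 6 epithelial markers, KRT19 was listed at 0 and the other 5 did not overlap between groups. Such separation is common with 2 libraries a group: 36.2% of all tested genes did not overlap. Of rows above 0 and under 1 FPKM, 16.2% lay higher and 16.8% lower in the OE-labelled libraries. KRT8, KRT18, EPCAM and CDH1 were higher in the OE-labelled libraries and KRT7 was lower, and the list summed to 590 and 569 FPKM in the OE-labelled libraries, against 518 and 448 FPKM in the vector-labelled ones. EPCAM and CDH1, which define epithelium, did not exceed 1.40 and 0.209 FPKM. Of 4 leukocyte markers, CD3E and MS4A1 were listed at 0, PTPRC did not exceed 0.00983 FPKM, and CD68, a lysosomal protein of macrophages and other cells, was at 17.1 and 16.3 FPKM, against 29.3 and 27.2 FPKM. Of 4 fibroblast markers, COL3A1 was at 15.2 and 21.8 FPKM, against 9.65 and 13.8 FPKM, while COL1A1, PDGFRA and PDGFRB overlapped and the list summed to 19 and 26.7 FPKM, against 14 and 17.5 FPKM. Summed over their lists, 4 alveolar and 3 endothelial markers stayed at or under 0.735 and 0.638 FPKM. The part of these markers in the results was not tested, and in bulk RNA fewer cells of a type and less RNA per cell cannot be told apart.

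Of the 67 transferases, 33 averaged 1 FPKM or more and are called on here. That is 49.3%, beside 54.3% of all rows of the table. Among the 33, 18 were at 10 FPKM or more, 5 were between 5 and 10, and 10 were between 1 and 5. The lowest of them were MGAT4C (1.49) and ST6GAL1 (1.58), and the highest of the remaining 34 was ST3GAL6 (0.808). Of those 34, 20 were above 0 in every library, 11 were listed at 0 in some, and B3GALT2, FUT9 and ST8SIA3 were listed at 0 in all 4. An exact 0 in such a table can be a failed estimate.

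The steps differed widely in level, and FPKM, being per length, allows genes to be summed and compared. Addition of beta4-linked galactose and branching of N-glycan antennae were the highest. With all rows counted, addition of alpha2,6-linked sialic acid to galactose, beta3-linked galactose and alpha2,8-linked sialic acid were the lowest. The summed level of the 7 B4GALT genes was 171 and 171 FPKM in the OE-labelled libraries, against 168 and 150 FPKM in the vector-labelled ones. The 8 MGAT genes summed to 167 and 177 FPKM, against 157 and 157 FPKM. The 6 ST8SIA genes together reached only 0.143 and 0.108 FPKM, against 0.378 and 0.345 FPKM. The other steps lay between, and no order is drawn among them, since it turns on a few rows. The O-glycan branching step stood at 13.7 to 16.8 FPKM. GCNT2, which acts on lactosamine chains, carried 75.1% to 85.3% of it, so the place of this step turns on that gene. The beta3-GlcNAc step stood at 27.9 to 35.1 FPKM, and at 17.7 to 20.5 FPKM without the row B3GNT1, whose identity is uncertain. The fucose step stood at 24 to 28 FPKM, and at 14 to 16.5 FPKM without FUT10 and FUT11, now named protein O-fucosyltransferases. Core 1 stood at 22.9 to 26.9 FPKM, and at 4.32 to 4.79 FPKM without the chaperone C1GALT1C1. That range overlaps the beta3-galactose step, at 3.88 to 4.48 FPKM, so those steps are not ranked against each other without the chaperone. These levels refer to transcripts, not to enzyme activity.

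**Figure D1:**
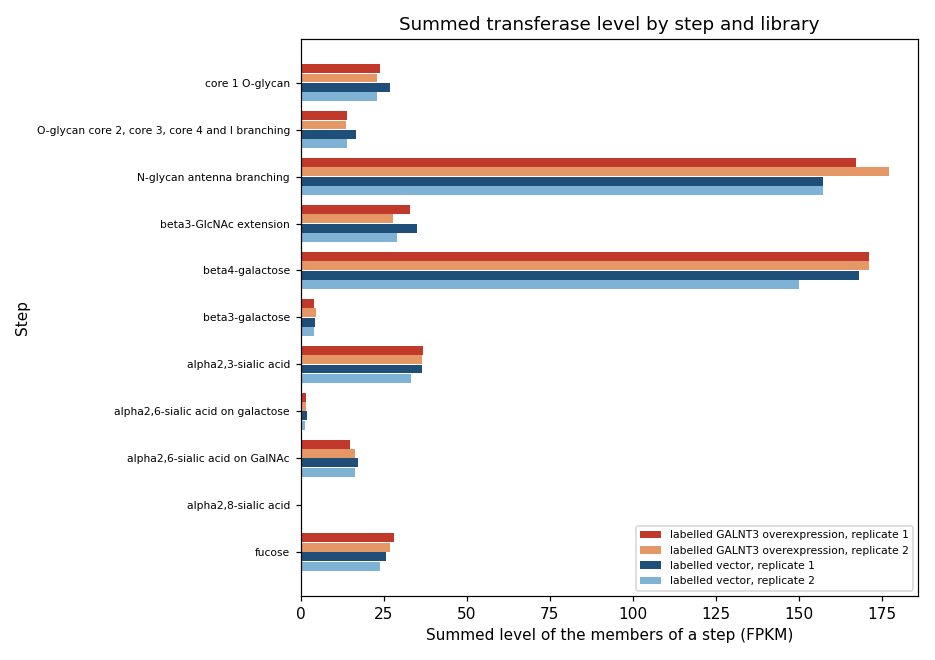
Summed level (FPKM, linear axis from 0) of the transferases of each step, with 1 bar per library: both libraries labelled GALNT3 overexpression above both labelled vector. Beta4-galactosylation and N-glycan branching stand at 150 to 177 FPKM in every library, and the alpha2,8-sialyltransferases, at 0.108 to 0.378 FPKM, are too low to be seen on this axis.

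None of the 33 transferases that were on passed the test of a difference between the groups after adjustment over all genes. Of 33 tested, 0 passed at an adjusted p under 0.05 (limma, Benjamini-Hochberg), where 0.5% of all 10998 tested genes did (0.109% higher and 0.391% lower), and their adjusted p ran from 0.194 to 0.997. An unadjusted p under 0.05 was reached by 4 of 33, beside 7.34% of all tested genes: MGAT4C, MGAT2 and FUT8 were higher (3.62% of tested genes were higher at that level) and GCNT3 was lower (3.72%). MGAT4C entered the test only through the OE-labelled libraries, its vector-labelled mean being 0.892 FPKM, so nothing is read from its place in that count. The median difference in log2(FPKM + 1) was 0.02 for the transferases and 0.02 for all tested genes, and 90.9% of the transferases and 90.6% of all tested genes lay within 0.25 of 0. Of the 33, 31 had a 95% interval wholly within 1 log2 unit of 0, so for these a doubling or halving on that scale lay outside the interval. Both OE-labelled libraries lay above both vector-labelled ones in 8 of 33 (20.9% of tested genes) and below them in 2 of 33 (15.3%), or 36.2% of tested genes in either direction.

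**Figure D2:**
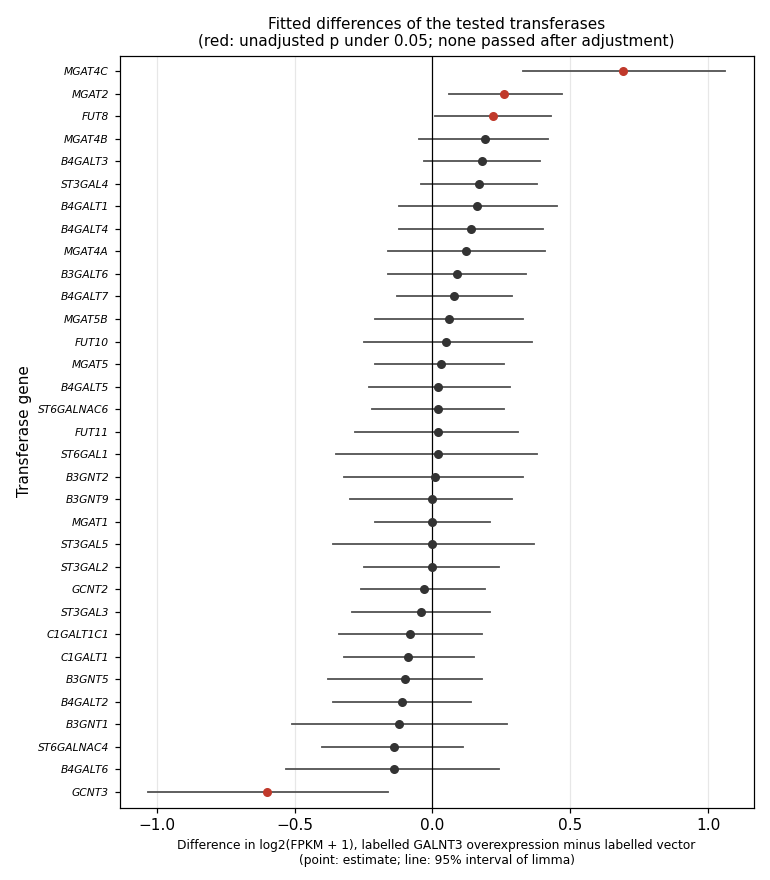
Difference in log2(FPKM + 1), libraries labelled GALNT3 overexpression minus those labelled vector, for the 33 tested transferases. Points are limma estimates, lines are 95% intervals, and red marks an unadjusted p under 0.05. MGAT4C (0.69) and GCNT3 (-0.60) stand at the ends, and the other 31 lie between -0.14 and 0.26.

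Core 1 was on. C1GALT1, the T-synthase that adds galactose to GalNAc, stood at 4.48 and 4.32 FPKM in the OE-labelled libraries, against 4.79 and 4.68 FPKM in the vector-labelled ones. C1GALT1C1 (COSMC), the chaperone that this enzyme needs in order to fold, stood at 19.3 and 18.6 FPKM, against 22.1 and 18.2 FPKM. The groups did not overlap for C1GALT1 and overlapped for the chaperone, and neither passed the test (differences -0.09 ± 0.10 and -0.08 ± 0.11, SE; limma, adjusted p = 0.914 and 0.929).

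Branching of O-glycans rested on few genes. GCNT3, an enzyme of mucin-producing epithelia that makes core 2, core 4 and I branches, stood at 1.45 and 1.56 FPKM in the OE-labelled libraries, against 3.60 and 2.11 FPKM in the vector-labelled ones. The groups did not overlap, and vector replicate 1 stood far above vector replicate 2. These values came out as 58 and 62 whole fragments, against 159 and 86. Corrected for depth, that is 0.521 times the vector-labelled sum (0.415 to 0.650, 95% exact interval of the counts). Such an interval holds counting error only and leaves out the spread between libraries. The difference was -0.60 ± 0.19 (SE; limma, unadjusted p = 0.0138, adjusted p = 0.444), and it was -0.31 without vector replicate 1 (limma, adjusted p = 0.718).

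GCNT2, which makes I branches on lactosamine chains, was the highest gene of this group. It stood at 11.7 and 11.7 FPKM in the OE-labelled libraries, against 12.6 and 11.4 FPKM in the vector-labelled ones, and it carried 75.1% to 85.3% of the summed level. GCNT1, the widely expressed core 2 enzyme, was under 1 FPKM in every library (0.631 and 0.346, against 0.528 and 0.432). GCNT4, also a core 2 enzyme, and GCNT7 did not exceed 0.0920 FPKM. B3GNT6, which makes core 3, was listed above 0 only in OE replicate 2, at 0.00553 FPKM. The highest gene able to start core 2 was thus GCNT3 by level.

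Every step of N-glycan branching was on except bisection. MGAT1, which adds the GlcNAc that opens the way to hybrid and complex N-glycans, stood at 39.5 and 43.2 FPKM in the OE-labelled libraries, against 42.0 and 40.4 FPKM in the vector-labelled ones. MGAT2, which starts the second antenna, stood at 30.7 and 32.2 FPKM, against 26.7 and 25.3 FPKM. Its groups did not overlap, and the difference was 0.26 ± 0.09 (SE; limma, unadjusted p = 0.0182, adjusted p = 0.497). MGAT2 lies on chromosome 14 from 49620795 to 49623481 (plus strand, GRCh38), and 2469 bases of its exons are shared with an antisense gene, AL139099.1, which has no row in the table.

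MGAT4B, which adds a further antenna to the alpha3 arm, was the highest of the branching genes, at 53.0 and 58.2 FPKM in the OE-labelled libraries, against 45.6 and 51.9 FPKM in the vector-labelled ones. It carried 29.1% to 33.1% of the summed level. Its groups did not overlap, with a difference of 0.19 ± 0.10 (SE; limma, adjusted p = 0.774). Its paralog MGAT4A stood at 5.94 and 5.02 FPKM, against 5.33 and 4.56 FPKM. MGAT5, which makes the beta6 branch that favours long lactosamine chains, stood at 20.6 and 19.3 FPKM, against 21.0 and 18.3 FPKM. MGAT5B, a relative of MGAT5 that acts on O-mannosyl glycans, stood at 14.3 and 17.7 FPKM, against 15.2 and 15.3 FPKM. The groups overlapped for these last 3 genes. MGAT3, which adds the bisecting GlcNAc, did not exceed 0.0317 FPKM, or 3 fragments in a library.

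MGAT4C, a relative of MGAT4A and MGAT4B, had the smallest p of the 33 transferases. It stood at 2.50 and 1.67 FPKM in the OE-labelled libraries, against 0.924 and 0.860 FPKM in the vector-labelled ones, and the groups did not overlap. In whole fragments these were 86 and 57, against 35 and 30. Corrected for depth, that is 2.34 times the vector-labelled sum (1.73 to 3.19, counting error only). The difference was 0.69 ± 0.16 (SE; limma, unadjusted p = 0.00265, adjusted p = 0.194). Without OE replicate 2 it was 0.89 and passed (limma, adjusted p = 0.0234), and without OE replicate 1 it was 0.50 and did not (0.460). Only the OE-labelled libraries reached 1 FPKM, so the gene entered the test through the group in which it was higher. Its exons share 1258 bases with the opposite-strand noncoding gene AC016993.1 (chromosome 12, gene from 85955666 to 86838904, minus strand, GRCh38).

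**Figure D3:**
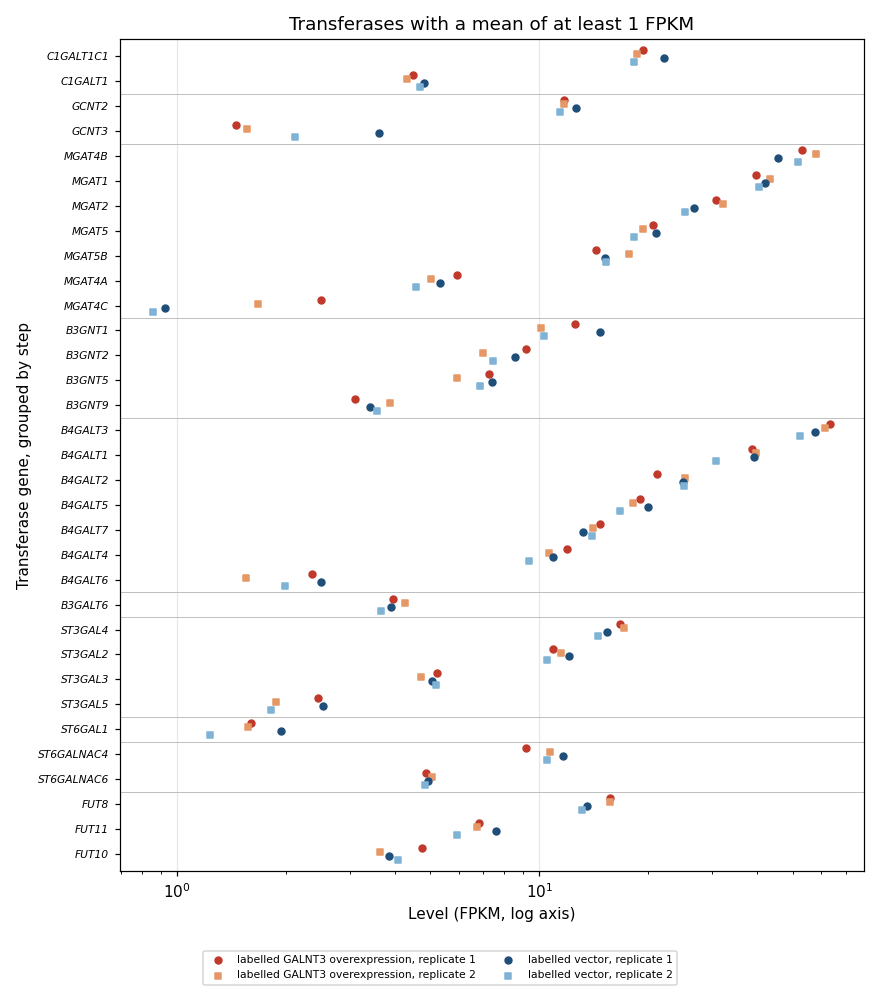
Level (FPKM, log axis) of the 33 transferases with a mean of at least 1 FPKM, 1 symbol per library (warm colours, libraries labelled GALNT3 overexpression; blue, labelled vector; circles, replicate 1; squares, replicate 2), with lines between steps. The 4 libraries lie close together for most genes, and MGAT4C and GCNT3 show the widest gaps between groups.

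Promoter windows of these genes, from 250 bases before to 50 after a start, were taken from RefSeq (GRCh38.p14), where 49 of the 67 genes matched. The dinucleotide CG (the same on both strands) was counted, since dense CG marks the promoters of widely expressed genes. The median was 24 CG per window in the 27 matched genes that were on and 17.1 in the 22 that were not, beside 26 and 10 in all table genes on either side of 1 FPKM. Windows were averaged over the listed starts of a gene. The GC box GGGCGG (either strand, overlapping some CG) was in a window of 85.2% of the genes on and 77.3% of those not on, beside 79% and 46.1% of all table genes on either side of 1 FPKM and 48.3% of all RefSeq genes. Of the 27 genes on, 4 (14.8%) had under 10 CG, beside 5.71% of all table genes that were on: MGAT4C, GCNT3, GCNT2 and MGAT5B. MGAT4C and GCNT3 had the largest fitted differences of the tested transferases (0.69 and -0.60), while GCNT2 and MGAT5B differed by -0.03 and 0.06. As MGAT4C entered the test through the group in which it was higher, no link between CG and difference is read. The counts of CG and GC boxes are descriptions of sequence, with no test.

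The windows of MGAT4C and GCNT3 are shown beside those of the highest genes of the galactose and branching steps. For genes with several starts the window with most CG is given. Sequences run 5′ to 3′ on the gene's strand, with CG in capitals. B4GALT3 (chr1:161177458-161177757, minus strand) has 23 CG, MGAT4B (chr5:179806817-179807116, minus strand) has 42, GCNT3 (chr15:59611533-59611832, plus strand) has 3 and MGAT4C (chr12:86257250-86257549, minus strand) has 2.
B4GALT3: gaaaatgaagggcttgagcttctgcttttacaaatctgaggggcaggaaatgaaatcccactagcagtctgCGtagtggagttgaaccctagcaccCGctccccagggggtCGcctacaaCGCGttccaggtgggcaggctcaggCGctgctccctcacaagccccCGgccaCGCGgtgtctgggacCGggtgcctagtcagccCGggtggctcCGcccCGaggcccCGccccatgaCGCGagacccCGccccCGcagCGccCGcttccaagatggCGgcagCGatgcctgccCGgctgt
MGAT4B: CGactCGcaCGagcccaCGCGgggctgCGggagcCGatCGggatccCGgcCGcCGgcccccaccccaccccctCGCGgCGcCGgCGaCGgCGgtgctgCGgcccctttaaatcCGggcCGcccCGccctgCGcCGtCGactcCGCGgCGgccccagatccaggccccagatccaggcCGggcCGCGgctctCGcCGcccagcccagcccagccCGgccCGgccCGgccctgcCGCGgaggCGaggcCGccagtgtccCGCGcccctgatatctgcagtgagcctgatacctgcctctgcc
GCNT3: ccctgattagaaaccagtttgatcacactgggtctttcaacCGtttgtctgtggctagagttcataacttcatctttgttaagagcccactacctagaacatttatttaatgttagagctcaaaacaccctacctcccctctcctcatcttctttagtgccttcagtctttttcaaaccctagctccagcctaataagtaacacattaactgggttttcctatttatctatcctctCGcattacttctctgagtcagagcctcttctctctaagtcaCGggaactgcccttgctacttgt
MGAT4C: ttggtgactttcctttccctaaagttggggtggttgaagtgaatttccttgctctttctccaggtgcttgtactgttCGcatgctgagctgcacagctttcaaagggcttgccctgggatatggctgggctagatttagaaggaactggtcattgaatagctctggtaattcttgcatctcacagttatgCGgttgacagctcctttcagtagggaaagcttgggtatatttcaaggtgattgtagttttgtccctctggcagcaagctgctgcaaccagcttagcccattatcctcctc

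**Figure D4:**
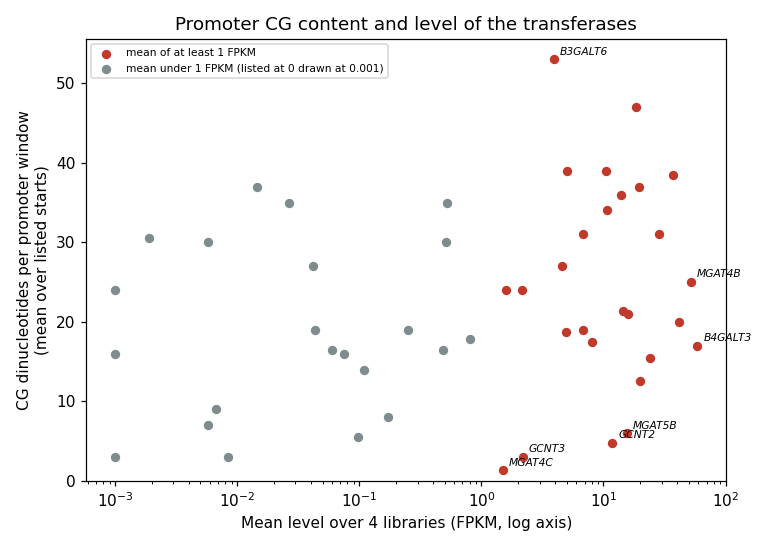
CG dinucleotides per promoter window (mean over the listed starts) against mean level over the 4 libraries (FPKM, log axis) for the 49 transferases with a RefSeq window. Red marks a mean of at least 1 FPKM and grey a lower one, with genes listed at 0 drawn at the left edge. MGAT4C and GCNT3 lie at the lower edge of the red points, at 1.33 and 3 CG.

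Chains could be extended through several GlcNAc-transferases. B3GNT2, the main enzyme of lactosamine chains, stood at 9.18 and 6.99 FPKM in the OE-labelled libraries, against 8.57 and 7.44 FPKM in the vector-labelled ones. B3GNT5, which starts lacto-series glycolipids, stood at 7.27 and 5.91 FPKM, against 7.38 and 6.85 FPKM. B3GNT9 stood at 3.10 and 3.87 FPKM, against 3.40 and 3.56 FPKM. The row named B3GNT1 stood at 12.5 and 10.1 FPKM, against 14.7 and 10.3 FPKM. That name is an older symbol given to both B3GNT2 and B4GAT1, and the table has a row for B3GNT2 but none for B4GAT1, a glucuronyltransferase of O-mannosyl glycans. If the row is B4GAT1, it does not belong to lactosamine extension. The groups overlapped for all 4 rows.

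Galactose transfer was carried by many genes at once. B4GALT3, which acts on N-glycans, was the highest of all 67 transferases, at 63.3 and 61.5 FPKM in the OE-labelled libraries, against 57.5 and 52.5 FPKM in the vector-labelled ones. The groups did not overlap, and the difference was 0.18 ± 0.09 (SE; limma, adjusted p = 0.750). B4GALT3 shares 1118 exon bases with PPOX on the opposite strand, itself at a mean of 26.3 FPKM. Overlaps are not named here for every gene. B3GNT9 shares 435 exon bases with C16orf70 (mean 19.2 FPKM) and MGAT4B 105 with SQSTM1 (mean 119 FPKM), both on the opposite strand. B4GALT1, the widely expressed lactosamine synthase, stood at 38.6 and 39.5 FPKM, against 39.2 and 30.7 FPKM, where vector replicate 2 stood apart. The difference of B4GALT1 was 0.16 in the full fit and -0.01 without that library. Vector replicate 2 was the lowest library more widely. Its median deviation from each gene's own mean in log2(FPKM + 1) was -0.093 for the transferases on and -0.046 for all tested genes.

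B4GALT2, also an enzyme of lactosamine synthesis, stood at 21.1 and 25.3 FPKM in the OE-labelled libraries, against 24.9 and 25.1 FPKM in the vector-labelled ones. B4GALT5 and B4GALT6, the enzymes of lactosylceramide, stood at 16.7 to 20 FPKM and at 1.55 to 2.50 FPKM over the 4 libraries. B4GALT4 stood at 11.9 and 10.6 FPKM, against 10.9 and 9.38 FPKM. The groups overlapped for these 4 genes. B4GALT7 and B3GALT6, which add the galactoses of the linker that holds glycosaminoglycan chains, stood at 14.7 and 14.1 FPKM and at 3.95 and 4.25 FPKM, against 13.2 and 14.0 FPKM and 3.90 and 3.66 FPKM. In both linker genes the groups were separated by a narrow gap, and neither passed (limma, adjusted p = 0.912 for each).

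Outside the linker, beta3-galactosylation was low. B3GALT6 alone gave 92.0% to 95.5% of the summed level of its family. B3GALT5, which makes type 1 chains, the backbone of Lewis a and sialyl Lewis a, was at 0.0157 and 0.0627 FPKM in the OE-labelled libraries, against 0.0753 and 0.0204 FPKM in the vector-labelled ones. B3GALT4, a ganglioside enzyme, was at 0.170 and 0.164 FPKM, against 0.240 and 0.201 FPKM. Both fell below the filter of the test.

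Alpha2,3-sialylation was on, mainly through ST3GAL4 and ST3GAL2. ST3GAL4, which caps lactosamine and serves in sialyl Lewis x, stood at 16.7 and 17.1 FPKM in the OE-labelled libraries, against 15.4 and 14.5 FPKM in the vector-labelled ones. The groups did not overlap, and the difference was 0.17 ± 0.09 (SE; limma, adjusted p = 0.770). ST3GAL2, which acts on gangliosides and core 1, stood at 10.9 and 11.5 FPKM, against 12.1 and 10.5 FPKM. ST3GAL3, a lactosamine enzyme, stood at 5.22 and 4.70 FPKM, against 5.05 and 5.18 FPKM. ST3GAL5, which makes the ganglioside GM3, stood at 2.45 and 1.87 FPKM, against 2.52 and 1.81 FPKM, highest in replicate 1 of each group. ST3GAL1, the main sialyltransferase of core 1, was under 1 FPKM (0.563 and 0.548, against 0.591 and 0.468), as was ST3GAL6 (0.933 and 0.644, against 0.870 and 0.787).

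Alpha2,6-sialylation of galactose was low. ST6GAL1, which caps N-glycan antennae, stood at 1.60 and 1.57 FPKM in the OE-labelled libraries, against 1.94 and 1.23 FPKM in the vector-labelled ones, and the difference was 0.02 ± 0.16 (SE; limma, adjusted p = 0.995). Its interval, from -0.35 to 0.38, was among the wider ones. ST6GAL2 was listed above 0 in OE replicate 1 only, as 1 fragment. Summed over the 6 genes, ST3GAL transcripts were at 33.2 to 36.7 FPKM in the 4 libraries, beside 1.23 to 1.94 FPKM for the ST6GAL pair.

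Of the enzymes that add sialic acid to GalNAc, ST6GALNAC4 and ST6GALNAC6, which act on already sialylated chains, were on. ST6GALNAC4, which makes disialyl-T, stood at 9.18 and 10.7 FPKM in the OE-labelled libraries, against 11.6 and 10.5 FPKM in the vector-labelled ones. ST6GALNAC6, which acts on gangliosides, stood at 4.87 and 5.04 FPKM, against 4.91 and 4.83 FPKM. Both overlapped between groups. ST6GALNAC1, which makes sialyl-Tn directly on GalNAc, was at 1 fragment in replicate 1 of each group and listed at 0 in replicate 2 of each. ST6GALNAC2 was at 0.132 and 0.133 FPKM, against 0.168 and 0.156 FPKM. ST6GALNAC3 was at 0.445 and 0.365 FPKM, against 0.580 and 0.714 FPKM, with no overlap, below the filter of the test. ST6GALNAC5, a ganglioside enzyme, was at 7 and 3 fragments, against 2 and 4.

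Among the FUT genes, the core fucosylation enzyme FUT8 had the highest transcript level, 52.9% to 58.5% of the summed FUT level. FUT8, which fucosylates the innermost GlcNAc of N-glycans, stood at 15.7 and 15.7 FPKM in the OE-labelled libraries, against 13.5 and 13.1 FPKM in the vector-labelled ones. The groups did not overlap, and the difference was 0.22 ± 0.09 (SE; limma, unadjusted p = 0.0403, adjusted p = 0.631), between 0.20 and 0.24 with each library left out. FUT8 shares 824 exon bases with its antisense gene FUT8-AS1. FUT11 stood at 6.83 and 6.74 FPKM, against 7.57 and 5.92 FPKM, and FUT10 at 4.73 and 3.62 FPKM, against 3.84 and 4.08 FPKM. These symbols are now POFUT4 and POFUT3, protein O-fucosyltransferases, so FUT8 was the only FUT gene of glycan fucosylation that was on. Outside the name rule, the protein O-fucosyltransferase POFUT1 stood at 33.4 and 32.8 FPKM, against 34.4 and 33 FPKM. POFUT2 stood at 15.8 and 14.8 FPKM, against 17.3 and 15.2 FPKM.

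The fucosyltransferases of Lewis and blood group antigens were all under 1 FPKM. FUT4, a Lewis x enzyme, was the highest, at 57 and 62 fragments in the OE-labelled libraries, against 55 and 72 in the vector-labelled ones (0.996 times after correction for depth, 0.769 to 1.29). FUT1 and FUT2, which make the H antigen, did not exceed 0.244 FPKM. FUT3, FUT5 and FUT6, close paralogs on chromosome 19 that complete Lewis antigens, did not exceed 0.0179, 0.0185 and 0.0156 FPKM. The values of FUT3 and FUT5 stood in the same whole-number ratio in the 4 libraries (1, 0, 0 and 2 steps), so their counts may be shared reads. FUT7, which makes sialyl Lewis x on leukocytes, was at 1 fragment in OE replicate 2 only.

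The 31 transferases under 1 FPKM but above 0 fell below the filter of the test. They were fitted only in the alternative that kept every gene above 0, where none of them passed (limma, smallest adjusted p = 0.201). In that fit 7 of all 64 transferases above 0 had an unadjusted p under 0.05, as did 1280 of 15991 genes. Both OE-labelled libraries lay below both vector-labelled ones in 7 of them (16.8% of the 4993 rows in that range) and above them in 1 (16.2%). For 26 of the 67 transferases the 4 values were whole multiples of a common step to within 0.005, and for 19 of these the step matched an annotated transcript length to within 25%. The 26 include B3GALT1, B3GNT6, FUT7, ST6GAL2 and ST8SIA6, each above 0 in only 1 library, where a single value always fits as 1 step. The 19 include 17 under 1 FPKM, of which 11 had at most 25 fragments over all 4 libraries. For most of them a difference of moderate size was not detectable at this depth. The smallest whole numbers are given, so a true count could be a multiple of them.

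In 2 of these 17 the counting interval excluded a ratio of 1, and both were singled out after their values were seen. ST8SIA2, which builds polysialic acid on the adhesion molecule NCAM, was at 0.00928 and 0.0187 FPKM in the OE-labelled libraries, against 0.168 and 0.210 FPKM in the vector-labelled ones. That is 1 and 2 fragments, against 20 and 23, or 0.0742 times after correction for depth (0.0147 to 0.232). B3GNT3, which extends core 1, was at 8 and 7 fragments, against 18 and 19 (0.431 times, 0.220 to 0.805). These intervals hold counting error only. ST8SIA4, the other polysialyltransferase, was at 6 and 7 fragments, against 16 and 9 (0.553 times, 0.260 to 1.12). ST8SIA1, which makes the ganglioside GD3, was at 8 and 2 fragments, against 7 and 4, and ST8SIA5 at 2 and 1, against 3 and 0. ST8SIA6 and B3GALT1 were each listed above 0 in a single vector-labelled library. Of the remaining beta3-GlcNAc-transferases, B3GNT4 was at 14 and 18 fragments, against 21 and 10, and B3GNT7 and B3GNT8 did not exceed 0.0441 and 0.178 FPKM.

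**Figure D5:**
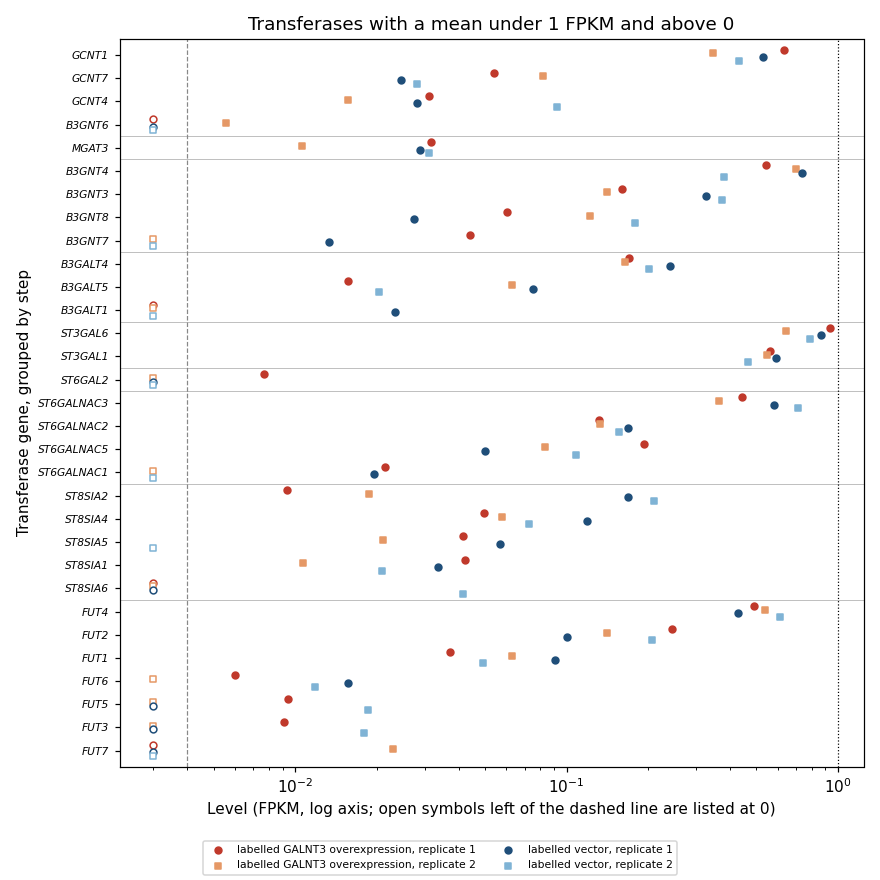
Level (FPKM, log axis) of the 31 transferases with a mean above 0 and under 1 FPKM, 1 symbol per library, coloured as in the plot of the higher genes. Open symbols left of the dashed line are listed at 0, and the dotted line marks 1 FPKM. ST8SIA2 shows the widest gap between the groups, from 0.0187 to 0.168 FPKM.

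Most rows of the table are in alphabetical order, and 2615 are not. Among the 67 transferases 16 stood out of that order, MGAT4C, GCNT3, ST8SIA2 and B3GNT3 among them. Where both group means were above 0, the higher was at least 1.60 times the lower in these rows and at most 1.42 times in the others. Whether such rows still carry their own values was checked with the steps: what 1 fragment is worth falls with transcript length. The step matched an annotated length in 9 of 13 rows out of order and in 10 of 13 rows in order. The scale from step to length was itself set from these same rows and GALNT3, so the check is not independent of them. Each step was set against the nearest of a gene's annotated transcripts, so genes with many transcripts can match more easily. No share was computed for exchanged genes, so these counts cannot settle whether a row carries its own values. For GCNT4, also out of order, the step implied 3568 bases, where its nearest transcript has 5554, and did not match. The step of ST8SIA2 implied 5980 bases, where its nearest transcript has 5708, and that of GCNT3 implied 2219, where its nearest has 2360.

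Genes that feed or surround these steps did not pass the test either. Of 62 tested genes in 8 lists 0 passed (limma, over all genes, where 0.5% did), and 2 had an unadjusted p under 0.05, beside 7.34% of all tested genes. NANS, which makes the sialic acid phosphate that precedes the CMP-sialic acid donor, stood at 35.9 and 39.1 FPKM in the OE-labelled libraries, against 30.4 and 30.5 FPKM in the vector-labelled ones (limma, unadjusted p = 0.0124, adjusted p = 0.428). It was the only gene of 6 tested for sialic acid donors at that level, and the median difference of the 6 was -0.03. SLC35A1, which carries the donor into the Golgi, stood at 24.2 and 19.6 FPKM, against 20.7 and 19.9 FPKM, and GNE, which starts sialic acid synthesis, at 3.88 and 3.39 FPKM, against 4.17 and 3.55 FPKM. Both overlapped between groups.

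Of the genes for galactose and GlcNAc donors, 0 of 16 had an unadjusted p under 0.05, with a median difference of 0.06. SLC35A2, the UDP-galactose transporter, had the smallest p, at 11.9 and 10.8 FPKM in the OE-labelled libraries, against 10.8 and 8.63 FPKM in the vector-labelled ones (limma, adjusted p = 0.790). Of the fucose donor genes it was 0 of 11, with a median of -0.03. FUK, the fucose kinase, stood at 4.66 and 5.69 FPKM, against 5.85 and 6.10 FPKM (limma, adjusted p = 0.832). Of the genes that trim N-glycans before the antennae it was 0 of 7, with a median of -0.03, and MAN2A1, a Golgi mannosidase that acts before MGAT2, stood at 2.95 and 2.75 FPKM, against 3.46 and 3.33 FPKM (limma, adjusted p = 0.788).

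Of the hydrolases that remove sugars it was 0 of 7, with a median of -0.02, and FUCA2, a fucosidase, stood at 28.2 to 29.4 FPKM in the OE-labelled libraries, against 30.4 to 34.6 FPKM in the vector-labelled ones (limma, adjusted p = 0.791). Of the sulfotransferases it was 0 of 2, with a median of -0.05: CHST8 stood at 2.85 and 2.20 FPKM, against 3.35 and 3.04 FPKM (limma, adjusted p = 0.766), and CHST10 overlapped. Of other Golgi transferases outside the name rule it was 0 of 10, with a median of -0.02, and B3GNTL1 had the smallest p, at 5.99 and 5.73 FPKM, against 7.21 and 6.44 FPKM (limma, adjusted p = 0.779). Of 3 lectin-related genes tested, LGALS3BP, a secreted glycoprotein that binds galectin-3, had an unadjusted p under 0.05. It stood at 42.7 and 50.1 FPKM, against 76.3 and 63.8 FPKM, with no overlap (limma, unadjusted p = 0.00172, adjusted p = 0.163). LGALS1 stood at 898 to 998 FPKM, against 908 to 1070 FPKM.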

How the data were processed

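Messenger RNA of 4 H2030 libraries was profiled with a stranded mRNA kit, per the labels' protocols. The authors deposited 1 table with a column per library and no unit in its header. The deposited values were read as FPKM, scaled by the authors to transcript length and library size, from their form (not whole, different column sums from 401366 to 448194, steps that depend on the gene), and the depth is known only as relative depth. The submitters' processing notes list TopHat, GenomeStudio 2010.1, GRCh38 and hg19, with no roles. What counted the fragments, on which annotation and with what strand setting, is not given in the sources used here, so overlapping and antisense genes cannot be told apart. FPKM divides by each library's total, so abundant genes can move the others.

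The 10998 genes averaging 1 FPKM or more were fitted as log2(FPKM + 1), which understates changes of low genes, with limma 3.58.1 in R 4.3.3 (eBayes with trend, group only, 2 residual and 5.34 prior degrees of freedom). P-values are two-sided and adjusted over all genes at a threshold of 0.05. With 2 libraries against 2, an exact permutation test cannot go below 0.333. On simulated data for this comparison (10998 genes), 100% of the 100 genes changed by 1 log2 unit and 0.130% of unchanged genes were called. The simulated noise was normal, with a spread smoothed over genes of similar level. It lacks the differences in spread between single genes, so these shares cannot be carried over to the real libraries. Steps were solved in Python 3.11.15. Intervals are exact (Clopper-Pearson) and, as fragments carry no molecular identifiers, cover counting error only. Positions and lengths are from GENCODE 29. The members and lists were chosen with earlier results of these data known. Every member is named by its values, by a range or by a count, and of each other list the genes with the smallest p. POFUT1 is given besides these, for comparison with FUT8. Every library column was assigned, with 0 left over. Alternatives were other pseudocounts, filters, scalings, variance models, a replicate block and leaving out each library.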

Additional observations from a re-analysis of the deposited data

How the results depend on the processing

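Over 13 alternatives, 13 of the 33 tested transferases kept the sign of their difference and 20 changed it at least once, all of those staying between -0.36 and 0.34. The count of transferases called was 0 except for 2 with the replicate block (MGAT4C at 0.69, limma adjusted p = 0.0115, and GCNT3 at -0.60, 0.0461) and 0 to 1 with a library left out, where the 1 was MGAT4C without GALNT3 overexpression replicate 2. The count over all genes was 55, 12 with every gene above 0, 31 with a mean of at least 5 FPKM, 443 with the replicate block and 23 to 83 with a library left out. MGAT4C entered the test through the OE-labelled libraries, in which it was higher, so nothing is read from its calls. The block leaves 1 residual degree of freedom. The cause of these changes in count was not tested. The block takes its numbers from the titles, which do not say that they mark a shared culture or day. Same-numbered libraries deviated together (r = 0.218 across 10998 genes, which are not independent replicates), but with 2 pairs the numbers were not taken as pairs. The number of transferases on was 33, with 38, 23 and 32 at a mean of 0.5 FPKM, at a mean of 5 FPKM and at 1 FPKM in every library. Signs turned with median centring in B3GNT2 (-0.0008), MGAT1 (-0.0030) and ST3GAL5 (-0.0018), and with quantile normalization in B3GNT9 (0.03), B4GALT5 (-0.0037), MGAT1 (-0.04) and MGAT5 (-0.0025). With a library left out, where the lone library of a group is assumed to vary like the other group, they turned in 20 genes. The ranges were B3GNT1 from -0.36 to 0.11, B3GNT2 from -0.17 to 0.18, B3GNT5 from -0.23 to 0.03, B3GNT9 from -0.13 to 0.12, B4GALT1 from -0.01 to 0.34, B4GALT2 from -0.24 to 0.02 and B4GALT5 from -0.10 to 0.15. Next, they were B4GALT6 from -0.34 to 0.05, C1GALT1C1 from -0.21 to 0.05, FUT10 from -0.10 to 0.21, FUT11 from -0.14 to 0.17, GCNT2 from -0.10 to 0.04, MGAT1 from -0.06 to 0.07 and MGAT5 from -0.07 to 0.12. Last, they were MGAT5B from -0.08 to 0.20, ST3GAL2 from -0.10 to 0.09, ST3GAL3 from -0.10 to 0.02, ST3GAL5 from -0.16 to 0.17, ST6GAL1 from -0.18 to 0.21 and ST6GALNAC6 from -0.0017 to 0.04. Of the 17 transferases under 1 FPKM with fragments recovered, 11 had at most 25 over all libraries, which limits what can be detected there.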
